A study of Homo sapiens with 51 samples.

Results

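The genes described here are 38 members of glycolysis and of the response to low oxygen, chosen by symbol among the 25421 symbols of a PLATE-seq count table. PLATE-seq barcodes 3′-end cDNA in each well and pools the wells before sequencing. By role they were 2 glucose transporters, 15 glycolytic enzymes, 5 genes of lactate and pyruvate handling, and 2 enzymes that set the level of the glycolysis activator fructose 2,6-bisphosphate. The others were 2 carbonic anhydrases, 2 mitophagy receptors, 3 secreted factors, 5 oxygen sensors and related dioxygenases, and 2 further hypoxia targets.

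Glycolysis turns glucose into pyruvate, and cells that lack oxygen lean on it and pass much of the pyruvate on to lactate. The hypoxia-inducible factors HIF-1 and HIF-2 are transcription factors whose alpha subunits are marked for destruction by oxygen-dependent prolyl hydroxylases, and they raise glucose transporters, glycolytic enzymes and genes such as VEGFA when oxygen falls. Pancreatic ductal adenocarcinoma (PDA) is known for poorly perfused, oxygen-poor tissue and for raised glycolysis.

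The 51 libraries came from 5 established human PDA lines in 17 groups of 3. HPAFII and PATU8988S had untreated cells only. KP4, PANC1 and PK45H, which the labels call morphogenic, had 5 groups each, namely untreated cells and cells given mCherry or OVOL2, either alone or together with M2rtTA. OVOL2 is a zinc-finger transcription factor known for holding cells in an epithelial state, mCherry is a fluorescent control protein, and M2rtTA is a transactivator of doxycycline-inducible promoters. Each was delivered by lentivirus at a multiplicity of infection of 2 with 8 µg/ml polybrene, and 2.5 µg/ml puromycin and 0.6 µg/ml doxycycline came a day later. Every transduced group, including those without M2rtTA, thus received doxycycline and puromycin per the labels, while no agent is named for untreated cells. RNA was taken after 6 days of culture, and 100 ng of it entered each library. The labels give neither the promoter that drives the open reading frames nor whether a line is 1 clone, and nothing in them says that the 3 libraries of a group came from separate cultures, so p-values measure the spread between libraries.

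Totals ran from 1165399 to 7490556 counts per library, and 15653 to 18817 genes had a count. The 13 mitochondrial mRNAs took 21.9% to 33.6% of the counts. HPAFII replicate 2 stood apart: it had the lowest total, its 6 epithelial markers were at a median of 0.386 of the mean of its mates, and the 35 members with a count in all HPAFII libraries were at a median of 0.718. Summed over KRT8, KRT18, KRT19, KRT7, EPCAM and CDH1, the epithelial markers reached 5326 to 14438 counts-per-million (CPM) in HPAFII and only 637 to 813 CPM in untreated KP4. The OVOL2 count itself was small. With M2rtTA it was 2.18 to 10.5 CPM in KP4 against 0 to 1.16 with mCherry, 4.26 to 4.66 in PK45H against 0.555 to 1.74, and 1.46 to 2.87 in PANC1 against 0.415 to 1.56. Without M2rtTA the OVOL2 and mCherry libraries overlapped in all 3 lines. Whether a tag at the 3′ end reads the viral transcript is not given in the sources used here, so these values do not check the labels, and groups are called by their labels.

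Levels below are CPM scaled over all 51 libraries, in the order of replicates 1 to 3, and where mCherry and OVOL2 libraries are set against each other the mCherry libraries come first. Changes are log2 fold changes with a standard error (SE) and an edgeR p-value adjusted over all genes tested, written log2 in parentheses, and a change counts as called when that p is under 0.05. In bulk RNA, fewer cells with a transcript and less transcript per cell cannot be told apart. Of the 38 members, 37 passed the filter on low counts in at least 1 comparison. CA9, a carbonic anhydrase at the cell surface, had at most 5 counts in any library and was never tested. PFKFB4 was tested only in PK45H and in the fit over lines, ALDOC in all fits but that of KP4, and CA12 in all but that of PANC1.

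The promoters of the 4 members with the smallest p over the lines with OVOL2 and M2rtTA are printed here because these genes fell with OVOL2. Each window runs from 250 bases before to 50 bases after the RefSeq start, on the gene's strand, in GRCh38.p14. Capitals mark the core of the hypoxia response element on either strand, which reads ACGTG in its common form and GCGTG in its other form. The palindrome CACGTG holds ACGTG on both strands and is also the sequence of E-boxes, so such a match does not tell them apart. LDHA lies at chr11:18394313-18394612 on the plus strand, GAPDH at chr12:6535014-6535313 on the plus strand, PGAM1 at chr10:97427568-97427867 on the plus strand and LDHB at chr12:21657793-21658092 on the minus strand.
LDHA: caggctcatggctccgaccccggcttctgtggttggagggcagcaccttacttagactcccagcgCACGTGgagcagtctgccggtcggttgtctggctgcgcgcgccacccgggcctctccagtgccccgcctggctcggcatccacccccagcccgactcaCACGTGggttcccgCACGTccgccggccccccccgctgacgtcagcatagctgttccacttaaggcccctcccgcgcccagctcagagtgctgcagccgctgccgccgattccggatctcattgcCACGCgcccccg
GAPDH: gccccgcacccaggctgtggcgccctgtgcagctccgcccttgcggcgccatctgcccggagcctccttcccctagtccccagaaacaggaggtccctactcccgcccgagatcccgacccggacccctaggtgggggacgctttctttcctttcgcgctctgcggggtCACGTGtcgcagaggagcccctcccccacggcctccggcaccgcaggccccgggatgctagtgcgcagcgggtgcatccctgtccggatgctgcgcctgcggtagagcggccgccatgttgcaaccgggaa
PGAM1: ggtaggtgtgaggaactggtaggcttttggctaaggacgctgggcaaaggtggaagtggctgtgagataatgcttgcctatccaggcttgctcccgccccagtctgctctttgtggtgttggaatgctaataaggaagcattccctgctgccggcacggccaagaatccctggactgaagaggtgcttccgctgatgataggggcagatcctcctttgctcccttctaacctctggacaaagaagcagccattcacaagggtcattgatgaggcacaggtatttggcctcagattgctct
LDHB: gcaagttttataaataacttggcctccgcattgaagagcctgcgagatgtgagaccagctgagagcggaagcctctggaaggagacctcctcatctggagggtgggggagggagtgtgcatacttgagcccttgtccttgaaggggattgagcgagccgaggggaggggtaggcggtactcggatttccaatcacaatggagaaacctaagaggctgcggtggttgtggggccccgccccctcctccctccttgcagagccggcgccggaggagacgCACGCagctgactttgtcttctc
Counted on both strands, so that a palindromic match counts 2 times, the LDHA window held 5 ACGTG and 1 GCGTG, the GAPDH window 2 ACGTG, the LDHB window 1 GCGTG and the PGAM1 window none. RefSeq windows were found for 33 of the 38 members, and 24 of the 33 (72.7%) held either form, against 48.4% of 27305 promoters of the same length. For the common form alone the shares were 42.4% and 21.6%. The members were listed for glycolysis and the hypoxia response, and the promoters were not matched in base composition, so these shares are no test. A match describes letters, not a bound site. The 4 genes fell with OVOL2, and their windows ranged from 6 matches to none.

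Untreated, the 5 lines differed widely in these genes, and not in a common direction. In the test of any difference among the lines, 27 of 36 tested members were called, against 57.8% of all genes. LDHB, ADM, SLC2A1, CA12, PFKP and GAPDH had the smallest p. LDHB, the lactate dehydrogenase subunit that favors making pyruvate from lactate, split the lines into high and low. It stood at 266, 245 and 264 CPM in KP4, 285, 209 and 237 in PANC1 and 189, 83.5 and 175 in HPAFII. The same gene was at only 11.4, 10.7 and 12.3 CPM in PATU8988S and 6.92, 5.05 and 10.5 in PK45H. No library of the 2 low lines came near the 3 high ones. Against the mean of the other 4 lines, LDHB was lower in PK45H with a log2 fold change of −3.76 (SE 0.29, adjusted p = 3.33e-07) and in PATU8988S with −3.01 (SE 0.27, adjusted p = 1.07e-06).

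ADM, the vasodilating peptide adrenomedullin, was high in PANC1 alone. It reached 88.7, 72.5 and 87.4 CPM there, against 14.2, 14.1 and 9.7 in HPAFII, 10.6, 10.3 and 13.7 in PATU8988S, 14.1, 9.97 and 13.5 in KP4 and 21.3, 12 and 15.3 in PK45H. The PANC1 libraries did not overlap those of any other line, and the log2 fold change against the other 4 was 2.68 (SE 0.16, adjusted p = 2.12e-08). BNIP3, a mitophagy receptor, was also highest in PANC1, with 31.7, 25.8 and 26.2 CPM and a log2 fold change of 2.72 (SE 0.23, adjusted p = 7.17e-07). SLC16A3, which exports lactate, followed with a log2 fold change of 2.06 (SE 0.18, adjusted p = 1.31e-06) and 76.7, 50.4 and 71.3 CPM.

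SLC2A1, the main glucose transporter GLUT1, was high in PK45H and HPAFII. It had 102, 118 and 104 CPM in PK45H and 130.3, 43.7 and 111 in HPAFII, where replicate 2 was the low one. The levels in PATU8988S were 27.9, 18.5 and 26.3, in KP4 16.4, 14.6 and 20.9 and in PANC1 12.2, 15.3 and 11.8. All libraries of PK45H and HPAFII exceeded all others. CA12, a carbonic anhydrase at the cell surface, was highest in HPAFII, with 44.9, 15.6 and 60.6 CPM there and at most 6.36 in any other line. Its log2 fold change in HPAFII against the other 4 lines was 4.06 (SE 0.31, adjusted p = 2.36e-07), with replicate 2 again the lowest, and 4.39 (adjusted p = 2.18e-08) without that library.

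PFKP, the platelet form of phosphofructokinase, was lowest in KP4 with 65.8, 64.7 and 74.3 CPM and highest in PK45H with 236, 243 and 271. PANC1, which overlapped PK45H, had 236, 183 and 217, PATU8988S 134, 151 and 143 and HPAFII 138, 105 and 133. GAPDH, which oxidizes glyceraldehyde 3-phosphate and is often used as a reference gene, was highest in KP4. It stood at 4076, 4183 and 3013 CPM in KP4, 1817, 1673 and 1662 in PK45H and 1543, 1189.7 and 1349.8 in PANC1. HPAFII had 1388, 1028 and 979 and PATU8988S 1147, 1125 and 1231. Every KP4 library exceeded every other library, with a log2 fold change of 1.47 (SE 0.12, adjusted p = 7.33e-07), while PANC1, HPAFII and PATU8988S overlapped. TPI1, the isomerase that feeds GAPDH, was highest in KP4 as well, with 1274, 1351 and 1168 CPM and a log2 fold change of 1.10 (SE 0.12, adjusted p = 1.41e-05).

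**Figure D1:**
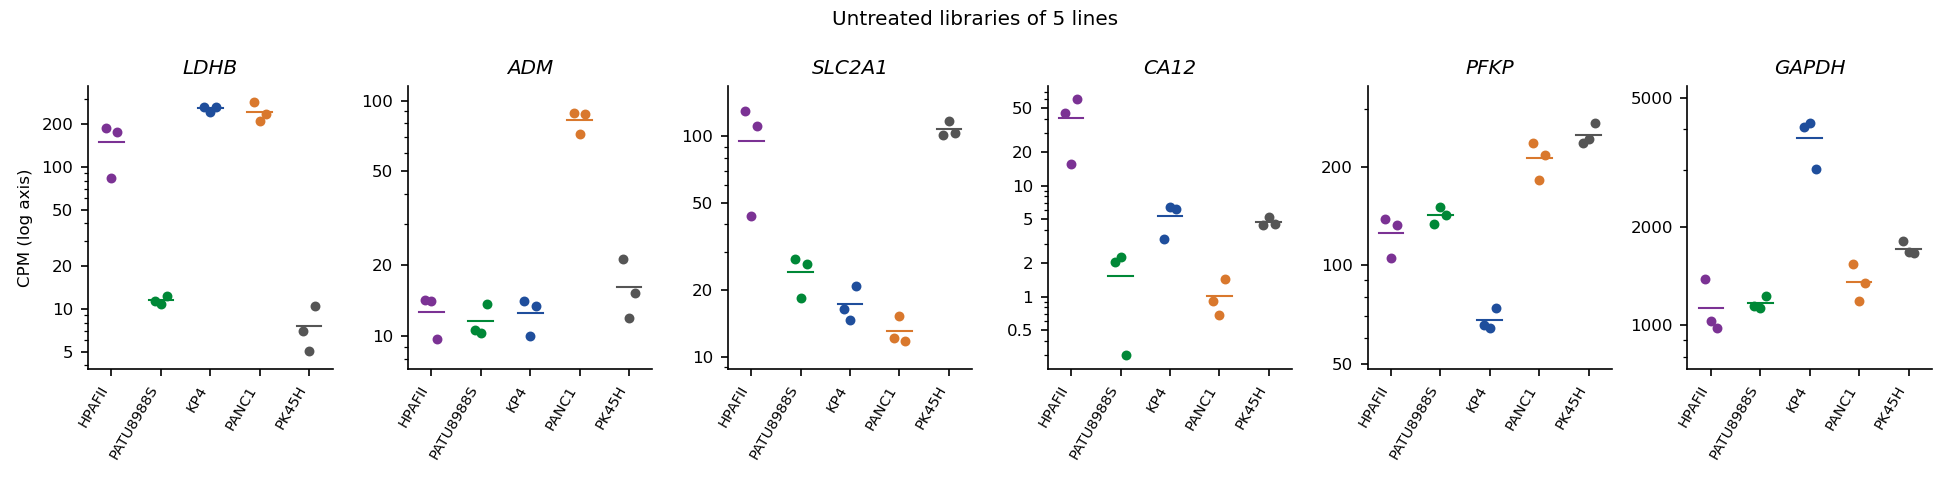
CPM on a log axis in each untreated library (points, n = 3 per line) with the mean (bar) for the 6 members with the smallest p among the 5 lines. LDHB is low in PATU8988S and PK45H, ADM is high in PANC1, and the low HPAFII point in LDHB, SLC2A1 and CA12 is replicate 2.

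HPAFII and PATU8988S together were set against the 3 lines that were also transduced. Of 36 members, 22 were called, 11 higher and 11 lower, against 34.8% of all genes, and the members' median log2 fold change was −0.0037, against −0.0048 for all genes. Glycolytic enzymes went both ways, 5 higher and 6 lower. PKM, the pyruvate kinase of most tissues, was higher with a log2 fold change of 0.84 (SE 0.17, adjusted p = 0.00113), and PGAM1, the phosphoglycerate mutase, was lower with −0.98 (SE 0.11, adjusted p = 5.41e-06). Among hypoxia targets NDRG1, a stress-induced gene tied to differentiation, was higher with a log2 fold change of 2.14 (SE 0.34, adjusted p = 0.000169). It stood at 15.2, 19.4 and 16.4 CPM in PATU8988S and at 20.04, 1.56 and 15.1 in HPAFII. KP4 had 1.28 to 4.47 CPM, PANC1 0.679 to 2.01 and PK45H 8.9 to 11, so that PK45H lay within the HPAFII range. In HPAFII replicate 2 was again far below its mates. Without that library the change of NDRG1 was 2.33 (adjusted p = 3.75e-06) and the count was 23 of 36. Calls that ended on leaving out some 1 library, with the number of such libraries and the highest adjusted p, were those of HK2 (9, up to 0.115 without HPAFII untreated replicate 1), ANGPTL4 (3, up to 0.062 without HPAFII untreated replicate 1), GPI (14, up to 0.164 without HPAFII untreated replicate 3), PDK1 (12, up to 0.15 without HPAFII untreated replicate 3) and ENO2 (1, up to 0.0506 without HPAFII untreated replicate 3).

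Taken one at a time against the other 4, the lines had 15 members called in HPAFII (24.6% of all genes), 18 in PATU8988S (29.3%), 16 in KP4 (29.3%), 16 in PANC1 (27.3%) and 13 in PK45H (24.7%). These shares of 36 lie above the background of all genes in every line. The background, here and elsewhere, was not matched to the members in level, and the part of level in any excess was not tested. In HPAFII 12 were higher (13.7% of all genes) and 3 lower (10.9%), and in PATU8988S 5 were higher (16.7%) and 13 lower (12.5%). The other lines were mixed. Without HPAFII replicate 2 the counts were 15, 18, 18, 16 and 16 in the same order, and that of any difference among the lines was 29. Leaving out PK45H replicate 2 took the PK45H count to 8, and thinning all untreated libraries to the smallest total took the counts to 7, 11, 7, 7 and 4, and the count for HPAFII and PATU8988S together to 9. The share of all genes called was not taken in these settings, so these counts are not set against a background. HPAFII had more PGK1, the kinase that makes the first ATP of glycolysis (log2 0.63, SE 0.14, adjusted p = 0.00391), and PATU8988S less of it (log2 −0.71, SE 0.15, adjusted p = 0.00236). PATU8988S led in GPI, the glucose 6-phosphate isomerase, with 374, 455 and 403 CPM and a log2 fold change of 0.96 (SE 0.15, adjusted p = 0.000272). KP4 had the most SLC2A3, the neuronal-type transporter GLUT3, with 17.9, 23 and 16.9 CPM (log2 1.46, SE 0.26, adjusted p = 0.000589), and overlapped only HPAFII, at 7.44, 17.2 and 10.2. PK45H had the most HK1, the hexokinase of most tissues, with 32.6, 34.4 and 39.6 CPM (log2 1.75, SE 0.20, adjusted p = 1.41e-05).

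Transduction with the mCherry control moved few of these genes. In KP4 0 of 35 members were called by edgeR (0% of all genes), with 3 at an unadjusted p under 0.05 and 0 by DESeq2, and 0 between the mean of both mCherry groups and untreated cells (0.00732%), with 4 at an unadjusted p under 0.05 and 0 by DESeq2. In PK45H 0 of 37 were called (0.00736%), with 2 at an unadjusted p under 0.05 and 1 by DESeq2. For both mCherry groups in PK45H 0 were called (0.0515%), with 1 at an unadjusted p under 0.05 and 0 by DESeq2. In PANC1 1 of 35 was called (0.598%), and it was VEGFA, the growth factor that drives vessel sprouting. VEGFA stood at 16.3, 17.1 and 10.6 CPM untreated and at 31.3, 27.4 and 29.2 with mCherry. With mCherry and M2rtTA it stood at 30.02, 21.9 and 22.4. The untreated libraries lay below both control groups, with a log2 fold change of 1.01 (SE 0.21, adjusted p = 0.0445) for mCherry and of 0.88 (SE 0.19, adjusted p = 0.036) for the mean of both mCherry groups, where 1.10% of all genes were called. For the first, leaving out any of 6 libraries ended the call (adjusted p up to 0.167, without PANC1 untreated replicate 3), where it was 0.83. For the second, leaving out any of 7 libraries ended the call (adjusted p up to 0.171, without PANC1 untreated replicate 3), where it was 0.71.

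Over the 3 lines, 0 of 37 members were called by edgeR between the mean of both mCherry groups and untreated cells (0.743% of all genes), with 8 at an unadjusted p under 0.05 and 0 by DESeq2. The members' median was −0.03 and that of all genes −0.0029. Untreated cells differ from the controls in virus, polybrene, puromycin and doxycycline at once, and these cannot be told apart. Adding M2rtTA to mCherry called 0 members in KP4, PANC1 and PK45H by edgeR (0%, 0% and 0.0294% of all genes), and DESeq2 called 1 in PK45H. The mCherry libraries of the next paragraphs are the same ones, so these comparisons and those with OVOL2 share them.

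OVOL2 with M2rtTA was followed by lower glycolytic enzymes over the lines, with more of them called in KP4 and PANC1 than in PK45H. NDRG1, ADM, SLC2A1 and SLC2A3 were among the fewer members called higher over the lines. Over the 3 lines, 21 of 37 members were called against the mCherry control with M2rtTA, where 32.9% of all genes were. Of these, 15 were lower (17.3% of all genes were lower) and 6 higher (15.7%), so that the lower share exceeded the background and the higher share was close to it, and the members' median was −0.20 against 0.03 for all genes. Of the 15 glycolytic enzymes, 11 were lower and none higher. Within lines with M2rtTA the enzymes called lower were 8 of 14 in KP4, 11 of 15 in PANC1 and 3 of 15 in PK45H. Without M2rtTA, 15 of 37 were called (18.1%), 10 lower (8.81%) and 5 higher (9.32%), and of the enzymes 5 were lower and none higher. The members were called in both arms in 12 cases, SLC2A1, GAPDH, PGAM1, ENO1, ENO2, PKM, LDHA, LDHB, SLC16A1, NDRG1, ADM and EGLN1. The 2 arms have separate mCherry libraries, and the OVOL2 effect was compared between them only within lines, as given further on.

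**Figure D2:**
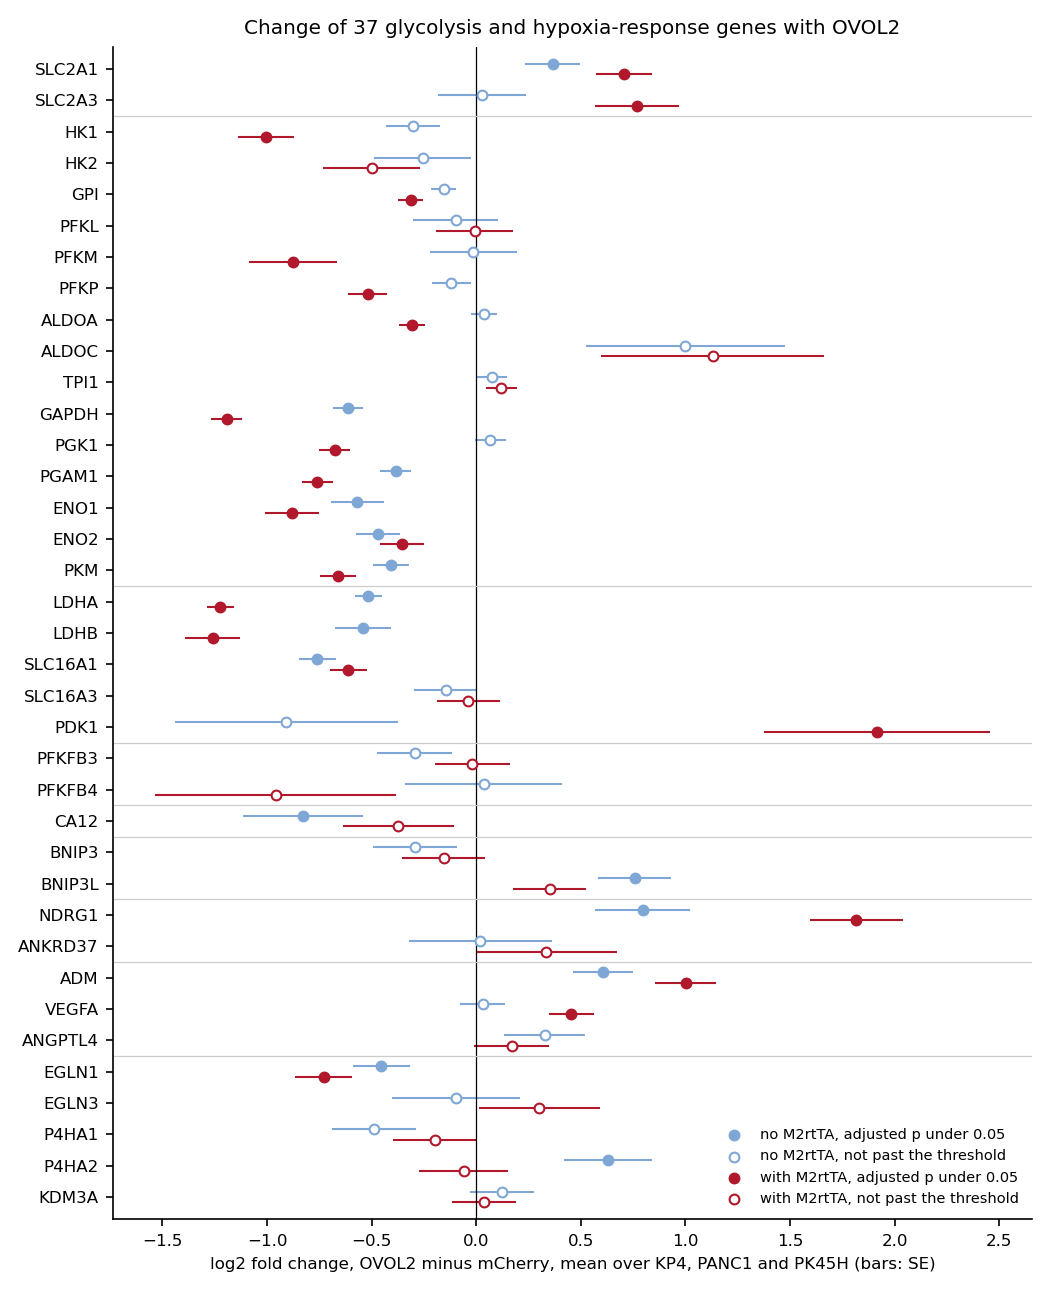
Log2 fold change of OVOL2 against mCherry (x axis, bars: SE) as the mean over KP4, PANC1 and PK45H for the 37 tested members, ordered by role, without (blue) and with M2rtTA (red). Filled points have an adjusted p under 0.05. Most red points of the enzymes from HK1 to PKM lie left of 0, while SLC2A1, SLC2A3, NDRG1, ADM and VEGFA lie right of it, and PDK1 has a wide bar.

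Within the lines, with M2rtTA, 15 of 35 members were called in KP4 (22.4% of all genes), 17 of 35 in PANC1 (13.9%) and 7 of 37 in PK45H (15.9%). The lower calls were 12, 14 and 5 (12.5%, 8.18% and 8.40% of all genes) and the higher calls 3, 3 and 2 (9.91%, 5.76% and 7.45%). Thus in KP4 and PANC1 the members' share exceeded the background, and in PK45H it was close to it. Without M2rtTA 13 of 35 were called in KP4 (6.82%), 4 of 35 in PANC1 (5.08%) and 10 of 37 in PK45H (8.39%). The lower calls were 8, 4 and 7 (3.56%, 2.96% and 4.81%) and the higher calls 5, 0 and 3 (3.26%, 2.12% and 3.58%). The shares called in either direction lie above the background in each line. Leaving out 1 library took the KP4 count to as few as 8 (without mCherry replicate 1, OVOL2 replicate 2 or OVOL2 replicate 3) and the PK45H count to as few as 2 (without OVOL2 replicate 1 or 3), to 3 without OVOL2 replicate 2 and to 4 without mCherry replicate 1 or 3, and the PK45H count was 3 when its libraries were thinned to the smallest total or the compared groups were fitted alone. The share of all genes called was not taken in these settings. Of the 10 PK45H calls without M2rtTA, 0 held under every alternative setting, counting each left-out library. With M2rtTA 4 members were lower in every line, HK1, GAPDH, PGAM1 and LDHA, and NDRG1 was higher in every line. Without M2rtTA GAPDH and SLC16A1 were lower in every line. No member was called in opposite directions in different lines.

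**Figure D3:**
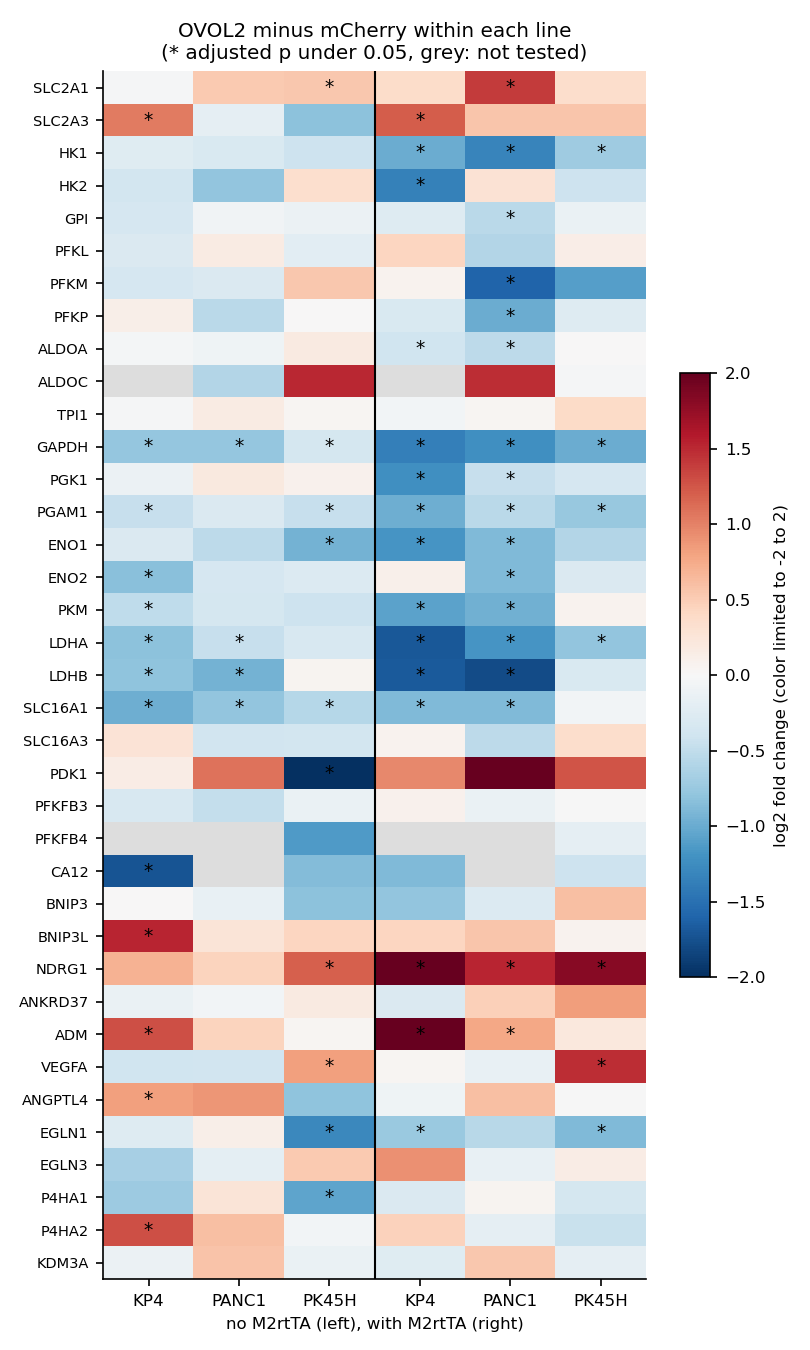
Log2 fold change of OVOL2 against mCherry within KP4, PANC1 and PK45H (columns) for 37 members in order of role (rows), without M2rtTA on the left and with it on the right. Stars mark an adjusted p under 0.05. GAPDH is starred and blue in all 6 columns, and grey cells were not tested.

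Glucose transporters rose where they were called. SLC2A1 in PANC1 stood at 16.5, 17.6 and 16.4 CPM with mCherry and M2rtTA and at 42.1, 42.2 and 46 with OVOL2 and M2rtTA. The groups were far apart, with a log2 fold change of 1.40 (SE 0.27, adjusted p = 0.00302). In KP4 the SLC2A1 change was 0.37 (SE 0.24, adjusted p = 0.314) and in PK45H 0.35 (SE 0.15, adjusted p = 0.128), and the 3 lines differed from each other (adjusted p = 0.0412), although leaving out any of 15 libraries ended the call (adjusted p up to 0.112, without PANC1 OVOL2 with M2rtTA replicate 3). Without M2rtTA SLC2A1 rose in PK45H, from 90.4, 103 and 100.4 CPM to 131, 147 and 159 (log2 0.54, SE 0.15, adjusted p = 0.0375), groups that did not overlap, and leaving out any of 6 libraries ended the call (adjusted p up to 0.139, without PK45H OVOL2 replicate 3). SLC2A3 rose in KP4, from 23.5, 12.5 and 20.8 CPM to 48.8, 40.5 and 42.3, with a log2 fold change of 1.21 (SE 0.20, adjusted p = 0.000718). Without M2rtTA SLC2A3 rose there as well, from 20.1, 17.3 and 17 to 38.2, 37.9 and 35.5 (log2 1.04, SE 0.20, adjusted p = 0.0066). The KP4 groups did not overlap in either arm. Reads of SLC2A3 and its near copy SLC2A14 can be split by the counting, and SLC2A14 had at most 11 counts in a library. Over the lines without M2rtTA SLC2A1 was at 0.37 (SE 0.13, adjusted p = 0.0499), and leaving out any of 12 libraries ended the call (adjusted p up to 0.177, without PANC1 OVOL2 replicate 3).

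GAPDH was the 1 member called lower in all 3 lines and both arms. In KP4 it stood at 2869.99, 3124 and 3174 CPM with mCherry and at 1735, 2017 and 1614 with OVOL2. With M2rtTA the KP4 levels were 2616, 2711 and 2569 against 1110.3, 872 and 1079. OVOL2 libraries lay below their mCherry controls without overlap in both arms. PANC1 had 1064, 1286 and 1192 CPM with mCherry and 783, 592 and 687 with OVOL2, and 1225, 1044 and 1367 against 491, 501 and 525 with M2rtTA. PK45H had 1597, 1609 and 1881 against 1317, 1396 and 1337, and 1773, 1629.5 and 2112 against 899, 927 and 944 with M2rtTA. These groups did not overlap either. With M2rtTA the log2 fold changes were −1.36 (SE 0.14, adjusted p = 1.52e-05) in KP4, −1.22 (SE 0.14, adjusted p = 4.14e-05) in PANC1 and −0.99 (SE 0.10, adjusted p = 3.81e-05) in PK45H. Without it they were −0.77 (SE 0.14, adjusted p = 0.00419), −0.77 (SE 0.14, adjusted p = 0.00454) and −0.36 (SE 0.10, adjusted p = 0.0478). For the last, leaving out any of 6 libraries ended the call (adjusted p up to 0.146, without PK45H mCherry replicate 3). Over the lines the change of GAPDH was −1.19 (SE 0.07, adjusted p = 3.72e-15) with M2rtTA and −0.61 (SE 0.07, adjusted p = 6.11e-08) without.

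PGAM1, which moves the phosphate of phosphoglycerate, fell in every line with M2rtTA. It went from 196, 203 and 179 CPM to 92.6, 106 and 94.5 in KP4 (log2 −0.97, SE 0.13, adjusted p = 0.000112). In PANC1 the levels were 235, 232 and 236 against 133, 171 and 166 (log2 −0.54, SE 0.15, adjusted p = 0.0302). In PK45H they were 179.8, 197 and 188 against 119, 107 and 107 (log2 −0.75, SE 0.12, adjusted p = 0.000777). No OVOL2 library reached the control range, and in PANC1 leaving out any of 6 libraries ended the call (adjusted p up to 0.105, without PANC1 OVOL2 with M2rtTA replicate 1). Without M2rtTA PGAM1 went from 225, 161 and 185 to 149, 127 and 134 in KP4 (log2 −0.47, SE 0.12, adjusted p = 0.0386) and from 180.2, 142 and 176 to 124, 132 and 114 in PK45H (log2 −0.46, SE 0.12, adjusted p = 0.0286). In PANC1 it was at 223, 224 and 189.6 against 147, 162 and 209. Leaving out 1 library ended each of these calls, with an adjusted p up to 0.167 in KP4 without mCherry replicate 1 and 0.117 in PK45H without OVOL2 replicate 3. The PANC1 groups overlapped, and the mean over the lines was −0.39 (SE 0.07, adjusted p = 0.000238). The copy PGAM4 had 0 counts and the pseudogene PGAM1P5 at most 7.

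ENO1, the enolase of most tissues, had libraries that varied more. With M2rtTA it fell from 1712, 1541 and 1263 CPM to 652, 729 and 606 in KP4 (log2 −1.18, SE 0.14, adjusted p = 6.01e-05) and from 1366, 1369 and 1863 to 704, 988 and 748 in PANC1 (log2 −0.88, SE 0.21, adjusted p = 0.0137). In PK45H it was at 1424, 1191 and 1775 against 1323, 864 and 736, where the groups overlapped (log2 −0.58, SE 0.24, adjusted p = 0.126). Without M2rtTA the PK45H levels were 2491, 1358 and 1462 against 839, 942 and 1039.9, which did not overlap, with a log2 fold change of −0.94 (SE 0.25, adjusted p = 0.0289). There, leaving out any of 4 libraries ended the call (adjusted p up to 0.121, without PK45H mCherry replicate 1), the highest of these libraries. In the same arm ENO1 was at 1546, 1316 and 1210.2 against 1323, 949 and 1047 in KP4 and at 1463, 1394 and 1812 against 897, 911 and 1401 in PANC1, and both pairs of groups overlapped. Over the lines the change of ENO1 was −0.88 (SE 0.13, adjusted p = 1.22e-06) with and −0.57 (SE 0.13, adjusted p = 0.00138) without M2rtTA. In PANC1 with M2rtTA, leaving out any of 3 libraries ended the call (adjusted p up to 0.0703, without PANC1 mCherry with M2rtTA replicate 3).

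With M2rtTA PKM, which makes pyruvate and ATP, and PGK1 fell in KP4 and PANC1 and were not called in PK45H. PKM went from 929, 867 and 633 CPM to 398, 397 and 358 in KP4 (log2 −1.07, SE 0.13, adjusted p = 8.49e-05) and from 1142, 1248 and 1269.7 to 615, 621 and 592 in PANC1 (log2 −0.97, SE 0.10, adjusted p = 2.63e-05). In PK45H PKM stood at 949, 829 and 931 against 989, 1013 and 815, with overlap and a change of 0.06 (SE 0.19, adjusted p = 0.867). The difference of the PKM change between lines had an adjusted p of 0.000638. Without M2rtTA PKM was 906, 727 and 853 against 553, 577 and 604 in KP4, 1111, 972 and 1061 against 731, 865 and 839 in PANC1, and 1242, 1139 and 982 against 834, 963 and 794 in PK45H. All 3 pairs of groups were apart and KP4 alone was called (log2 −0.51, SE 0.13, adjusted p = 0.033), where leaving out any of 5 libraries ended the call (adjusted p up to 0.113, without KP4 mCherry replicate 1). The mean over lines was −0.41 (SE 0.09, adjusted p = 0.00061).

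PGK1 in KP4 went from 199.9, 239 and 177 CPM to 88.3, 86.8 and 87.1 with M2rtTA (log2 −1.22, SE 0.13, adjusted p = 2.29e-05). In PANC1 it went from 191, 187 and 241 to 152, 132 and 151 (log2 −0.47, SE 0.13, adjusted p = 0.0279). For PANC1, leaving out any of 3 libraries ended the call (adjusted p up to 0.143, without PANC1 mCherry with M2rtTA replicate 3). PK45H had 179.8, 177 and 188 against 133, 132 and 166 (log2 −0.33, SE 0.14, adjusted p = 0.143). The groups did not overlap in any line, and the PGK1 change differed between lines (adjusted p = 0.00214). Without M2rtTA it was 206, 162 and 177 against 177, 166 and 157 in KP4, 166, 181 and 189 against 220.4, 199 and 187 in PANC1, and 217, 171 and 235 against 207, 225 and 239 in PK45H. Those libraries overlapped in all 3 lines, and the mean change was 0.07 (SE 0.07, adjusted p = 0.594).

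HK1, which traps glucose in the cell as glucose 6-phosphate, fell with M2rtTA in each line. The levels were 13.9, 17.9 and 12.8 CPM against 6.7, 5.23 and 10.8 in KP4 (log2 −0.99, SE 0.28, adjusted p = 0.0202). They were 19.1, 16.9 and 21.8 against 8.53, 6.88 and 7.28 in PANC1 (log2 −1.32, SE 0.21, adjusted p = 0.000893) and 33.1, 37.9 and 41.5 against 28.3, 23.8 and 16.6 in PK45H (log2 −0.70, SE 0.19, adjusted p = 0.0211). The groups were apart in each line. For KP4, leaving out any of 3 libraries ended the call (adjusted p up to 0.0872, without KP4 OVOL2 with M2rtTA replicate 2), and for PK45H, leaving out any of 3 libraries ended the call (adjusted p up to 0.0778, without PK45H OVOL2 with M2rtTA replicate 3). Without M2rtTA HK1 was 14.2, 11.3 and 7.59 against 9.16, 9.51 and 9.39 in KP4, 14.9, 15 and 18 against 16.4, 12.2 and 9.86 in PANC1, and 34.4, 33 and 34.2 against 26.7, 30.1 and 21.2 in PK45H. Of these only the PK45H groups were apart. The mean over the lines was then −0.30 (SE 0.13, adjusted p = 0.108) and not past the threshold. HK2, the inducible hexokinase, was called in KP4 with M2rtTA, from 7.85, 6.9 and 8.54 CPM to 3.52, 3.54 and 1.79 (log2 −1.35, SE 0.29, adjusted p = 0.00429).

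The remaining enzymes were called in fewer lines. Over the lines with M2rtTA, PFKP was lower (log2 −0.52, SE 0.09, adjusted p = 4.03e-05), as were PFKM, the muscle form of phosphofructokinase (log2 −0.88, SE 0.21, adjusted p = 0.00125), and GPI (log2 −0.31, SE 0.06, adjusted p = 7.72e-05). ALDOA, the aldolase of most tissues (log2 −0.31, SE 0.06, adjusted p = 0.000182), and ENO2, the neuronal enolase (log2 −0.35, SE 0.11, adjusted p = 0.00908), were lower too. Within lines ALDOA was called in KP4 and PANC1. Leaving out any of 4 libraries ended the KP4 call (adjusted p up to 0.111, without KP4 mCherry with M2rtTA replicate 1). The PANC1 call ended without PANC1 mCherry with M2rtTA replicate 3 (adjusted p = 0.0536). In PK45H the ALDOA means were 286.8 CPM with mCherry and 286.7 with OVOL2. For PFKP and PFKM the within-line call was in PANC1, from 244, 205 and 278 CPM to 94.3, 128 and 135 for PFKP and from 16.5, 11.2 and 25.6 to 7.31, 5.02 and 4.93 for PFKM. TPI1 (log2 0.12, SE 0.08, adjusted p = 0.236) and PFKL, the liver form (log2 −0.01, SE 0.18, adjusted p = 0.986), were not called. ALDOC, the brain aldolase, had at most 7.56 CPM in any library and was not called either (log2 1.13, SE 0.53, adjusted p = 0.103).

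The largest fall of a called member over the lines with M2rtTA was that of LDHB, followed by LDHA. LDHA, the subunit that favors making lactate, went with M2rtTA from 624, 622 and 522 CPM to 221, 147 and 177 in KP4 (log2 −1.69, SE 0.14, adjusted p = 2.71e-06). In PANC1 it went from 655, 567 and 678 to 275, 259 and 286 (log2 −1.18, SE 0.11, adjusted p = 9.79e-06) and in PK45H from 639, 619.9 and 623 to 348, 338 and 393 (log2 −0.80, SE 0.11, adjusted p = 0.000392). Every OVOL2 library lay under every control library of its line. The size differed between the lines (adjusted p = 0.00106), and KP4 had the largest. Without M2rtTA the levels were 664, 661 and 657 against 373, 389 and 361 in KP4 (log2 −0.81, SE 0.13, adjusted p = 0.0023) and 582, 574 and 570.3 against 426, 419 and 398 in PANC1 (log2 −0.46, SE 0.11, adjusted p = 0.0262). PK45H had 686, 621 and 787 against 577, 583 and 545 (log2 −0.32, SE 0.11, adjusted p = 0.099), groups that did not overlap and missed the threshold. For PANC1, leaving out any of 6 libraries ended the call (adjusted p up to 0.118, without PANC1 OVOL2 replicate 3). Over the lines the change was −1.22 (SE 0.07, adjusted p = 1.44e-16) with M2rtTA and −0.52 (SE 0.06, adjusted p = 2.28e-07) without.

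LDHB fell in the 2 transduced lines that had much of it. With M2rtTA it went from 270.1, 299 and 234 CPM to 67.9, 87.8 and 93.5 in KP4 (log2 −1.68, SE 0.14, adjusted p = 4.61e-06) and from 264, 239 and 304 to 73.8, 73.1 and 81 in PANC1 (log2 −1.79, SE 0.14, adjusted p = 1.96e-06). Without M2rtTA it went from 296, 275 and 232 to 156, 162 and 143 in KP4 (log2 −0.80, SE 0.14, adjusted p = 0.00413) and from 228, 212 and 223 to 115, 108 and 121 in PANC1 (log2 −0.94, SE 0.13, adjusted p = 0.000967). The groups were apart in both lines and arms. PK45H, low from the start, had 14.3, 7.22 and 5.95 against 7.48, 5.69 and 8.99 with M2rtTA and 5.4, 5.04 and 4.83 against 6.61, 5.89 and 3.74 without. These overlapped, and the change with M2rtTA differed between lines (adjusted p = 0.00425).

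SLC16A1, the lactate and pyruvate transporter MCT1, was lower in every line without M2rtTA. It went from 76.4, 79.1 and 60.1 CPM to 36.2, 35.6 and 37.7 in KP4 (log2 −0.97, SE 0.16, adjusted p = 0.00269). In PANC1 it went from 46.8, 55.7 and 50.5 to 29.5, 29.7 and 28.4 (log2 −0.79, SE 0.15, adjusted p = 0.00814) and in PK45H from 35.6, 45 and 53.3 to 30.2, 31 and 30.9 (log2 −0.57, SE 0.16, adjusted p = 0.0398). The groups were apart, and for PK45H leaving out any of 5 libraries ended the call (adjusted p up to 0.148, without PK45H mCherry replicate 3). With M2rtTA the levels were 78, 69.2 and 68.1 against 48.8, 36.1 and 30.7 in KP4, and 47.6, 41.8 and 43.4 against 25.6, 21.9 and 23.3 in PANC1. PK45H had 42.1, 35.7 and 42.1 against 37.8, 32.6 and 44, which overlapped. The difference between lines in that arm had an adjusted p of 0.0153, and leaving out any of 2 libraries ended the call (adjusted p up to 0.0728, without PK45H OVOL2 with M2rtTA replicate 3). Over the lines the change was −0.61 (SE 0.09, adjusted p = 1.25e-06) with and −0.76 (SE 0.09, adjusted p = 6.21e-08) without M2rtTA. SLC16A3 was not called in any OVOL2 comparison (log2 −0.04, SE 0.15, adjusted p = 0.881 over the lines with M2rtTA).

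PDK1, the kinase that shuts pyruvate out of the mitochondrial citric acid cycle, had single libraries far above their mates. In PANC1 with OVOL2 and M2rtTA it stood at 28.3, 86 and 2060.2 CPM, from 116, 600 and 8772 counts, so that replicate 3 was 23.9 times its nearest mate. In PK45H with mCherry it stood at 1323, 37.6 and 111 CPM, from 5390, 97 and 482 counts, and replicate 1 was 11.9 times its nearest mate. PDK1 was the only member with a library of at least 10 counts and at least 5 times both mates, and these 2 groups were 2 of 603 pairs of member and group (0.332%), against 1.33% over all genes. At 3 times the pairs were 6 (0.995%), against 3.05%, and 4 of these 6 were PDK1. The other 2 PDK1 groups were PANC1 with OVOL2, at 132, 31.3 and 20.7 CPM, and PANC1 with mCherry and M2rtTA, at 27.6, 135 and 29.7.

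Over the lines with M2rtTA the change of PDK1 was 1.92 (SE 0.54, adjusted p = 0.00574), and 0.68 (adjusted p = 0.249) without PANC1 OVOL2 with M2rtTA replicate 3. In PK45H without M2rtTA it was −4.02 (SE 0.91, adjusted p = 0.0138), and −1.29 (adjusted p = 0.0511) without mCherry replicate 1, while leaving out any of 4 libraries ended the call (adjusted p up to 0.0577, without PK45H OVOL2 replicate 1). Both calls thus ended without the high library. The PK45H OVOL2 libraries were at 27.6, 32.3 and 32.6 CPM, close to the untreated ones at 31.2, 33 and 34.8. With M2rtTA PK45H had 41.2, 39 and 56.3 CPM with mCherry and 75.6, 152 and 98.2 with OVOL2, which did not overlap (log2 1.26, SE 0.82, adjusted p = 0.339). KP4 had 30.7, 28.6 and 24.5 against 35.4, 37.4 and 89.1, where OVOL2 replicate 3 was the high one (log2 0.95, SE 0.34, adjusted p = 0.0562). In PANC1 the groups overlapped, and the change was 3.53 (SE 1.23, adjusted p = 0.0716).

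**Figure D4:**
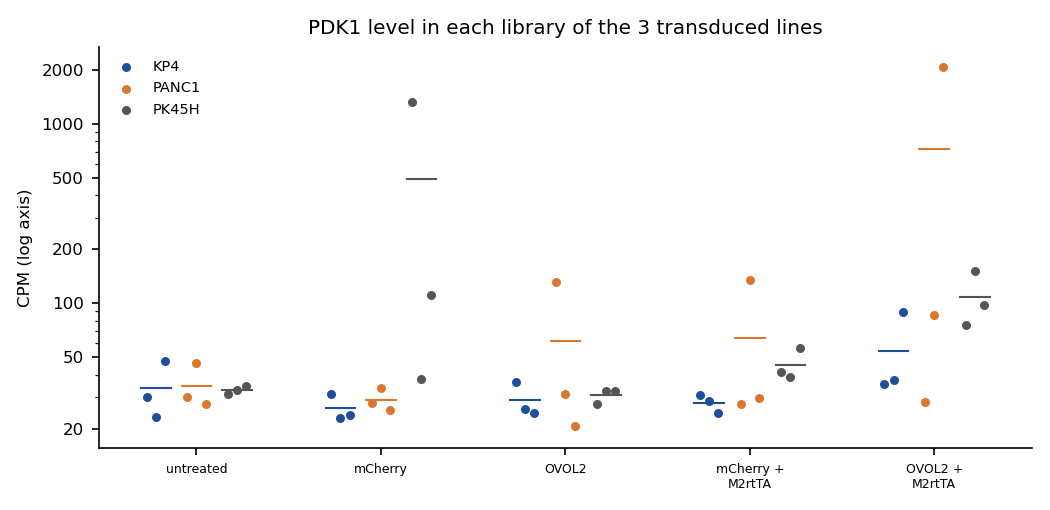
PDK1 CPM on a log axis in each library (points) of KP4, PANC1 and PK45H with the group mean (bar), n = 3 per group. Most libraries lie close together, and 1 PK45H mCherry library (1323 CPM) and 1 PANC1 library with OVOL2 and M2rtTA (2060.2 CPM) lie far above them.

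PFKFB3 and PFKFB4, which make fructose 2,6-bisphosphate, were not called in any OVOL2 comparison. PFKFB3 was at −0.02 (SE 0.18, adjusted p = 0.953) over the lines with M2rtTA and ranged from 3.30 to 12.6 CPM in the transduced libraries. PFKFB4 had at most 3.18 CPM in any library. CA12 was lower in KP4 without M2rtTA, at 6.93, 5.55 and 7.13 CPM with mCherry and 3.51, 1.33 and 0.939 with OVOL2 (log2 −1.73, SE 0.42, adjusted p = 0.0263). Those groups were apart, and leaving out any of 4 libraries ended the call (adjusted p up to 0.0986, without KP4 OVOL2 replicate 2). Over the lines without M2rtTA CA12 was lower as well (log2 −0.83, SE 0.28, adjusted p = 0.0386), and leaving out any of 12 libraries ended the call (adjusted p up to 0.105, without PK45H mCherry replicate 3).

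Of the mitophagy receptors, BNIP3L was called without M2rtTA and BNIP3 was not, and they were not tested against each other. BNIP3L went from 24.3, 21.6 and 21.4 CPM to 50.7, 44.5 and 97.5 in KP4 without M2rtTA (log2 1.53, SE 0.28, adjusted p = 0.00519). In PANC1 it was 29.5, 27.8 and 25.5 against 25.5, 27.7 and 45.1, and in PK45H 36.1, 51.6 and 23.9 against 68.7, 45.4 and 39.2. Only the KP4 groups were apart, and the mean over the lines was 0.76 (SE 0.17, adjusted p = 0.00184). With M2rtTA the levels were 37, 22.2 and 32 against 40.04, 51.8 and 30.5 in KP4, 23.1, 21.9 and 27.4 against 29.96, 40.01 and 33.6 in PANC1, and 37.9, 72.7 and 50.1 against 72, 58 and 38.1 in PK45H. The PANC1 groups did not overlap, and the mean was 0.35 (SE 0.17, adjusted p = 0.121). BNIP3 was not called in either arm (log2 −0.29, SE 0.20, adjusted p = 0.354 without and log2 −0.16, SE 0.20, adjusted p = 0.597 with M2rtTA).

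NDRG1 rose in every line with M2rtTA. With M2rtTA it went from 1.34, 0.511 and 2.33 CPM to 5.7, 8.43 and 4.35 in KP4 (log2 2.09, SE 0.52, adjusted p = 0.0101) and from 2, 1.94 and 1.25 to 3.41, 6.02 and 5.17 in PANC1 (log2 1.53, SE 0.42, adjusted p = 0.0259). PK45H went from 14.5, 16.8 and 14.7 to 68.9, 52 and 41.2 (log2 1.82, SE 0.24, adjusted p = 0.000229). The OVOL2 libraries lay above all controls of their line. For PANC1, leaving out any of 5 libraries ended the call (adjusted p up to 0.105, without PANC1 OVOL2 with M2rtTA replicate 2). Without M2rtTA PK45H rose from 6.14, 12 and 13.6 to 20.8, 27.8 and 25.3 (log2 1.20, SE 0.26, adjusted p = 0.00985), while KP4 had 3.71, 1.44 and 2.53 against 3.97, 3.61 and 5.01 and PANC1 1.58, 2.12 and 1.1 against 1.61, 2.54 and 2.42, with overlap in both. The mean over lines was 1.82 (SE 0.22, adjusted p = 4.61e-08) with M2rtTA and 0.80 (SE 0.23, adjusted p = 0.0123) without. NDRG1 was also higher in the untreated HPAFII and PATU8988S, as given above. ANKRD37, an ankyrin repeat protein and hypoxia target, was not called (log2 0.34, SE 0.34, adjusted p = 0.486 with M2rtTA).

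The secreted factors rose in different lines. ADM rose in KP4, from 12.7, 11.5 and 6.44 CPM to 19.9, 26.8 and 28.5 without M2rtTA (log2 1.29, SE 0.24, adjusted p = 0.00572) and from 9.64, 7.66 and 9.12 to 35.9, 29 and 41.8 with it (log2 2.01, SE 0.25, adjusted p = 7.86e-05). PANC1, which already had the most, went from 64.5, 57.3 and 64.8 to 84.8, 124 and 103 with M2rtTA (log2 0.78, SE 0.16, adjusted p = 0.00412), and was at 61.7, 64.9 and 79.9 against 94.2, 88.3 and 95.8 without. PK45H had 13, 20.4 and 16 against 20.2, 24.6 and 12.3 with M2rtTA and 13, 12 and 18.2 against 9.68, 16 and 19.5 without. All KP4 and PANC1 groups were apart and the PK45H groups overlapped. Over the lines ADM rose in both arms (log2 1.00, SE 0.14, adjusted p = 1.1e-06 with and log2 0.61, SE 0.14, adjusted p = 0.00262 without M2rtTA), and with M2rtTA the lines differed (adjusted p = 0.00397).

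VEGFA rose in PK45H, where ADM was not called. It went from 20.5, 18.7 and 19.7 CPM to 60.7, 54.6 and 48.7 with M2rtTA (log2 1.48, SE 0.15, adjusted p = 3.46e-05) and from 14, 17.8 and 17.9 to 34, 27.8 and 28 without (log2 0.83, SE 0.16, adjusted p = 0.00532). The groups were far apart in both arms. KP4 had 15.2, 18.1 and 15.7 against 15.2, 18.5 and 16.1 with M2rtTA and 19.3, 13.8 and 22.1 against 14.2, 15.6 and 11.9 without. PANC1 had 30.02, 21.9 and 22.4 against 23.4, 20.9 and 21.4 with M2rtTA and 31.3, 27.4 and 29.2 against 17.2, 22.8 and 26.6 without. KP4 and PANC1 were not called, with changes from −0.40 to 0.03, although the PANC1 groups without M2rtTA did not overlap and OVOL2 was the lower. The lines differed with an adjusted p of 8.99e-05 with M2rtTA and 0.00364 without. ANGPTL4, an inhibitor of lipoprotein lipase, rose in KP4 without M2rtTA, from 9.51, 9.45 and 9.21 to 18.3, 14.3 and 16.9 (log2 0.82, SE 0.21, adjusted p = 0.0348). The groups were apart, and leaving out any of 6 libraries ended the call (adjusted p up to 0.113, without KP4 OVOL2 replicate 1). With M2rtTA the KP4 levels of ANGPTL4 overlapped, at 6.95, 8.43 and 9.12 against 7.37, 9.27 and 6.15 (log2 −0.09, SE 0.23, adjusted p = 0.817). PANC1 had 3.6, 3.98 and 5.14 against 9.67, 7.84 and 6.04 without M2rtTA, which did not overlap but were not called (log2 0.89, SE 0.31, adjusted p = 0.126), and overlapping 5.34, 3.29 and 8.73 against 9.26, 7.74 and 8.69 with it (log2 0.60, SE 0.30, adjusted p = 0.221). In PK45H ANGPTL4 stood near 1 to 4 CPM in all 4 groups, with log2 fold changes of −0.80 without and −0.01 with M2rtTA, and was not called. Over the lines ANGPTL4 was not called in either arm (log2 0.33, SE 0.19, adjusted p = 0.263 without and log2 0.17, SE 0.18, adjusted p = 0.51 with M2rtTA).

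**Figure D5:**
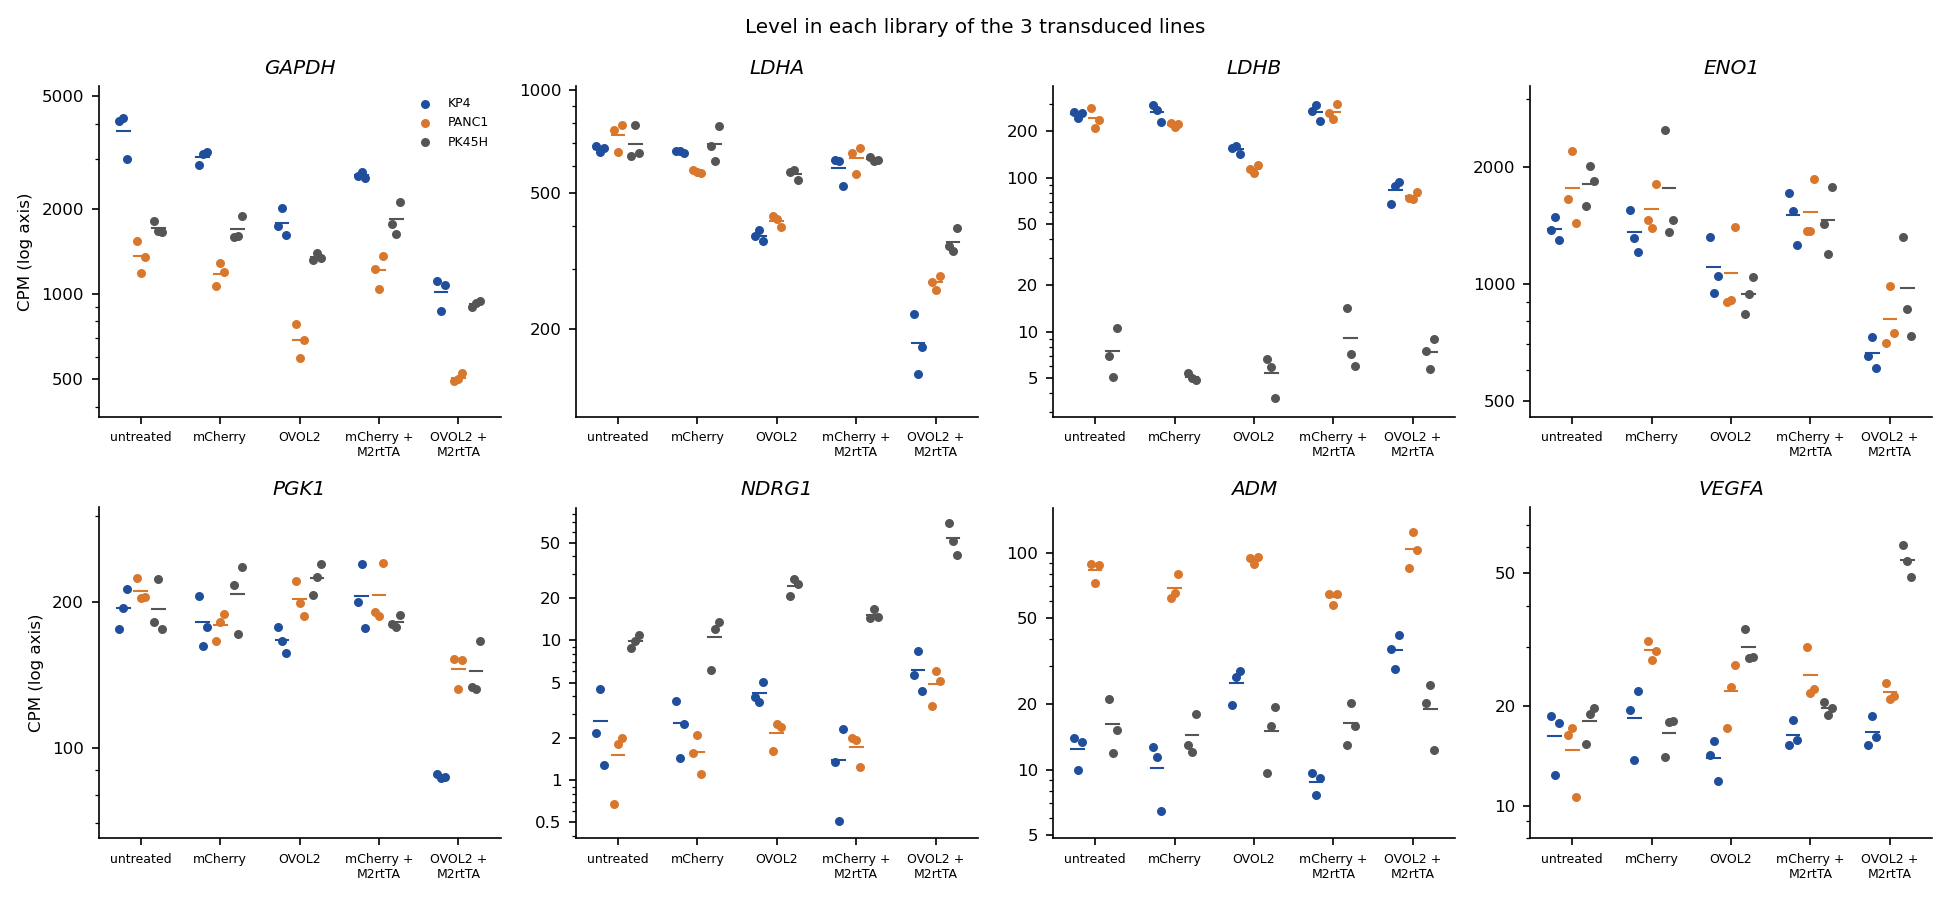
CPM on a log axis in each library (points) of KP4, PANC1 and PK45H with the group mean (bar), n = 3 per group, for 8 members. GAPDH, LDHA and PGK1 are lowest in the group with OVOL2 and M2rtTA of each line, LDHB is low in PK45H throughout, and VEGFA is highest in PK45H with OVOL2 and M2rtTA.

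Of the oxygen sensors and dioxygenases, EGLN1 was called over the lines in both arms (log2 −0.45, SE 0.14, adjusted p = 0.0173 without and log2 −0.73, SE 0.14, adjusted p = 6.24e-05 with M2rtTA). EGLN1 is the prolyl hydroxylase PHD2 that marks the HIF alpha subunits in normal oxygen. It fell in PK45H, from 11.5, 14 and 16.5 CPM to 4.49, 7.91 and 4.98 without M2rtTA (log2 −1.28, SE 0.30, adjusted p = 0.0149) and from 14.5, 14.1 and 19.6 to 12.5, 7.5 and 5.68 with it (log2 −0.89, SE 0.28, adjusted p = 0.0455). KP4 fell with M2rtTA, from 18.8, 18.4 and 17.7 to 12.1, 9.44 and 11 (log2 −0.75, SE 0.15, adjusted p = 0.00257), and was at 22.2, 18.3 and 17.7 against 16.5, 16.9 and 15.3 without. PANC1 had 19.3, 11.4 and 17.4 against 13.6, 11.6 and 6.81 with M2rtTA and 12.6, 15.2 and 16 against 19.1, 13.8 and 14.7 without, and its groups overlapped. For PK45H without M2rtTA, leaving out any of 3 libraries ended the call (adjusted p up to 0.0623, without PK45H OVOL2 replicate 3), and with M2rtTA, leaving out any of 5 libraries ended the call (adjusted p up to 0.164, without PK45H OVOL2 with M2rtTA replicate 3). Without M2rtTA the lines differed (adjusted p = 0.0379), and leaving out any of 8 libraries ended the call (adjusted p up to 0.135, without PK45H OVOL2 replicate 1).

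The collagen prolyl hydroxylase subunits P4HA1 and P4HA2 were each called in 1 line, without M2rtTA, and were not tested against each other. P4HA2 rose in KP4 without M2rtTA, from 2.58, 4.31 and 6.67 CPM to 9.16, 11.8 and 11.6 (log2 1.29, SE 0.32, adjusted p = 0.0276), and P4HA1 fell in PK45H, from 17.7, 13.6 and 19.99 to 7.32, 9.76 and 8.09 (log2 −1.05, SE 0.29, adjusted p = 0.0356). Both pairs of groups were apart. For P4HA2, leaving out any of 4 libraries ended the call (adjusted p up to 0.108, without KP4 mCherry replicate 1), and for P4HA1, leaving out any of 5 libraries ended the call (adjusted p up to 0.108, without PK45H OVOL2 replicate 1). Over the lines without M2rtTA P4HA2 was higher (log2 0.63, SE 0.21, adjusted p = 0.0326), and leaving out any of 9 libraries ended the call (adjusted p up to 0.114, without PANC1 OVOL2 replicate 2). With M2rtTA neither was called over the lines (log2 −0.20, SE 0.20, adjusted p = 0.485 for P4HA1 and log2 −0.06, SE 0.21, adjusted p = 0.863 for P4HA2). In PK45H with M2rtTA P4HA1 was at 15.8, 14.4 and 17.8 against 6.87, 12.4 and 18.2 and P4HA2 at 20.5, 19.99 and 12.8 against 15.4, 12.9 and 10.4, and both pairs of groups overlapped. EGLN3, the hydroxylase that is itself a HIF target, and KDM3A, a histone demethylase, were not called (log2 0.30, SE 0.29, adjusted p = 0.465 and log2 0.04, SE 0.15, adjusted p = 0.887 over the lines with M2rtTA).

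The OVOL2 effect with M2rtTA differed from that without it for some members. In KP4 the difference of the effects was called for 4 of 35 members (1.43% of all genes): PGK1 (log2 −1.11, SE 0.18, adjusted p = 0.0114), LDHA (log2 −0.88, SE 0.19, adjusted p = 0.0335), ENO1 (log2 −0.89, SE 0.20, adjusted p = 0.0411) and LDHB (log2 −0.88, SE 0.20, adjusted p = 0.0451). All 4 fell further with M2rtTA, and the count was 1 under upper-quartile scaling, with no filter on low counts, on thinning or in a fit of the compared groups alone, and 1 to 4 on leaving out 1 library. Calls that ended on leaving out some 1 library, with the number of such libraries and the highest adjusted p, were LDHA (10, up to 0.0897 without KP4 mCherry with M2rtTA replicate 1), ENO1 (9, up to 0.109 without KP4 mCherry replicate 3) and LDHB (10, up to 0.117 without KP4 mCherry replicate 3). In PK45H 2 of 37 were called (1.60%), GAPDH (log2 −0.63, SE 0.15, adjusted p = 0.0482) and PDK1 (log2 5.28, SE 1.22, adjusted p = 0.0474), whose mCherry library was described above. GAPDH fell further with M2rtTA, while PDK1 was called lower without M2rtTA and was not called with it. The same count and p were GAPDH (11, up to 0.104 without PK45H mCherry with M2rtTA replicate 3) and PDK1 (8, up to 0.105 without PK45H OVOL2 replicate 1), and leaving out any 1 library left 0 or 1 of the 2 calls. Without PK45H mCherry replicate 1 the PDK1 difference was 2.54 (adjusted p = 0.0272). In PANC1 0 of 35 were called by edgeR (0.136%), with 10 at an unadjusted p under 0.05 and 4 by DESeq2.

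The lines also differed in the OVOL2 effect. With M2rtTA the difference was called for 9 of 37 members (7.56% of all genes), namely VEGFA, PKM, LDHA, PGK1, ADM, LDHB, SLC16A1, SLC2A1 and ENO2. Without M2rtTA it was called for 2 of 37 (2.74%), VEGFA and EGLN1. That count was 4 at a minimum mean count of 10 and without PANC1 OVOL2 with M2rtTA replicate 1 or replicate 3. It was 1 without any 1 of KP4 mCherry replicates 2 and 3, PANC1 mCherry replicate 1, PANC1 OVOL2 replicate 1 and PK45H OVOL2 replicates 1 and 3. For EGLN1, leaving out any of 8 libraries ended the call (adjusted p up to 0.135, without PK45H OVOL2 replicate 1). For ENO2 the changes with M2rtTA were 0.11 in KP4, −0.88 in PANC1 and −0.29 in PK45H, with an adjusted p of 0.0447 for their difference, and leaving out any of 8 libraries ended the call (adjusted p up to 0.144, without PANC1 mCherry with M2rtTA replicate 1). For the mean of both mCherry groups against untreated cells, 0 of 37 members differed between lines by edgeR (0.502%), with 3 at an unadjusted p under 0.05. DESeq2 was not run for tests among 3 or more lines.

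Other values moved with the OVOL2 groups. In PANC1 the mitochondrial share was 30.3% to 31.5% with OVOL2 and M2rtTA against 25% to 25.3% with mCherry and M2rtTA, and 28.3% to 29.1% against 22.5% to 25.9% without. Its part in the PANC1 changes was not tested. The fibroblast markers DCN, LUM, COL1A1 and PDGFRB summed to 41.1 to 48.4 CPM in KP4 with OVOL2 and M2rtTA against 10.2 to 20.4 with mCherry and M2rtTA. In PANC1 the sums were 41.4 to 60.6 against 17.2 to 27.6 and in PK45H 21.2 to 26.9 against 7.83 to 7.97. COL1A1 made up most of each sum, and LUM had at most 3 and PDGFRB at most 5 counts in any library. Without M2rtTA the fibroblast sums were 18.2 to 22.6 CPM in KP4 against 11.5 to 13.7. They overlapped in PANC1 (16.3 to 22.8 against 17.5 to 21.4) and PK45H (5.72 to 11.6 against 5.43 to 8.59). With M2rtTA the epithelial markers summed to 963 to 1072 CPM in KP4 against 614 to 626, and to 4634 to 4768 in PK45H against 1849 to 1987. In PANC1 they were 1979 to 2272 against 2228 to 2545. Without M2rtTA the sums were 1056 to 1206 against 759 to 809 in KP4, 4334 to 4724 against 2580 to 2985 in PK45H and 2317 to 2602 against 2198 to 2635 in PANC1. Keratins made up most of the PANC1 sums, with KRT18 at 941 to 1753 CPM over all PANC1 libraries. EPCAM ran there from 29.4 to 281 CPM (median 43.1) and CDH1 from 3.32 to 41.7 (median 7.06). The sums can therefore hide a change in EPCAM or CDH1, and the PANC1 sums do not show whether these rose with OVOL2. Of the acinar markers PRSS1, CPA1 and CELA3A, only PRSS1 passed 4 counts in a PK45H library, and the sum there was 4.73 to 6.07 CPM with OVOL2 and M2rtTA against 0 to 0.148. Without M2rtTA the PK45H sum was 5.19 to 7.41 CPM with OVOL2 against 0 with mCherry, and untreated PATU8988S had 3.29 to 5.26. Summed immune markers PTPRC, CD68 and CD3E reached at most 9.97 CPM in any group, and endothelial markers PECAM1, VWF and CDH5 at most 13.7. The part of these in the members' changes was not tested.

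Regulators of the pathway were called at shares near or below those of all genes. Of 14 tested genes that control HIF, 1 was called over the lines without M2rtTA (18.1% of all genes) and 5 with it (32.9%), 2 higher and 3 lower, with medians of 0.07 and 0.15 against 0.00 and 0.03 for all genes. EPAS1, the HIF-2 alpha subunit, was higher in both arms (log2 0.57, SE 0.10, adjusted p = 8.5e-05 without and log2 0.52, SE 0.10, adjusted p = 0.000107 with M2rtTA). In KP4 with M2rtTA it lay at 4.27 to 4.48 CPM with mCherry and at 7.42 to 11.2 with OVOL2. PANC1 had 70.7 to 78.9 against 55.4 to 76, which overlapped. HIF1A, the HIF-1 alpha subunit, was not called (log2 0.24, SE 0.16, adjusted p = 0.254 with M2rtTA), nor were its partner ARNT (log2 −0.10, SE 0.12, adjusted p = 0.569) and VHL, which carries hydroxylated alpha subunits to degradation (log2 0.27, SE 0.13, adjusted p = 0.1). In the untreated comparison EPAS1 was higher in HPAFII and PATU8988S (log2 1.25, SE 0.18, adjusted p = 6.65e-05) and HIF1A was not called (log2 0.31, SE 0.20, adjusted p = 0.256).

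Of 19 other tested genes of glycolysis and glucose handling, 3 were called without M2rtTA (18.1% of all genes), 1 higher and 2 lower, and 7 with it (32.9%), 4 higher and 3 lower, with medians of 0.17 and 0.20. Both shares lie near the background. PGM1, which links glycogen to glycolysis, fell with M2rtTA (log2 −1.94, SE 0.17, adjusted p = 1.79e-11). In KP4 it lay at 10.5 to 11.9 CPM with mCherry and at 2.51 to 3.88 with OVOL2. Its PANC1 levels were 12.5 to 23.2 against 2.11 to 3.15 and its PK45H levels 14.5 to 19.2 against 5.21 to 7.28. No line had overlapping groups. TXNIP, a brake on glucose uptake, was at 1.34 (SE 0.35, adjusted p = 0.00327) with M2rtTA and −0.49 (SE 0.35, adjusted p = 0.377) without. FBP1, an enzyme of glucose synthesis, was not called with OVOL2 (log2 0.20, SE 0.38, adjusted p = 0.738 with M2rtTA), and was far higher in untreated HPAFII and PATU8988S (log2 5.23, SE 0.27, adjusted p = 3.06e-09), as was TXNIP (log2 1.72, SE 0.36, adjusted p = 0.00166).

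Of 39 other tested hypoxia-induced genes, 11 were called without M2rtTA (18.1% of all genes), 5 higher and 6 lower, and 17 with it (32.9%), 6 higher and 11 lower, with medians of −0.12 and −0.05. Both shares exceed the background. By direction, the background was 9.32% higher and 8.81% lower without M2rtTA and 15.7% and 17.3% with it. LOXL2, a collagen crosslinking enzyme, fell in both arms (log2 −1.81, SE 0.12, adjusted p = 2.21e-13 without and log2 −1.82, SE 0.12, adjusted p = 1.07e-13 with M2rtTA). STC2, a secreted glycoprotein, was higher without M2rtTA (log2 1.08, SE 0.13, adjusted p = 1.01e-07). FAM162A, a HIF target in mitochondria, was lower with it (log2 −0.79, SE 0.10, adjusted p = 5.45e-08). Of 19 genes of pyruvate entry and the pentose phosphate path, 2 were called without M2rtTA, 1 higher and 1 lower, and 7 with it, 1 higher and 6 lower, with medians of −0.05 and −0.19. Against the same shares of all genes, the first count lies below the background and the second near it. PGD, the phosphogluconate dehydrogenase, was lower in both arms (log2 −0.60, SE 0.08, adjusted p = 6.33e-07 and log2 −0.49, SE 0.08, adjusted p = 5.97e-06).

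Across the 17 group means, the genes most like a member in log2 level were found among 15229 genes by Pearson correlation, as a description over groups that share lines. Of the 12 genes named here, 7 were also among the 5 most like by Spearman rank correlation, and MND1, LAMTOR2, NSMCE1, ITM2B and MANSC1 were not (rho = 0.70 for NSMCE1). GAPDH was most like VDAC1 (r = 0.96), a channel of the outer mitochondrial membrane, MND1 (0.95) and FABP5 (0.95). LDHA was most like LAMTOR2 (0.97), NSMCE1 (0.94) and GSS (0.94). NDRG1 was most like ITM2B (0.94), MANSC1 (0.94) and ASAH1 (0.94), and BNIP3L like TMEM184B (0.87), ELL2 (0.86) and GLTP (0.86).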

How the data were processed

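PLATE-seq libraries from 51 samples of 5 established PDA cell lines were deposited as 1 table of whole-number counts per gene symbol. Per the submitters' processing notes the authors used kallisto 0.44.0 and GRCh38, and how its estimates became whole counts and whether molecular identifiers were collapsed is not given in the sources used here. The deposited counts of 25421 symbols were tested with edgeR 4.0.16 (limma 3.58.1, R 4.3.3): filterByExpr by group, TMM scaling, quasi-likelihood F tests and Benjamini-Hochberg adjustment over all genes tested, with a threshold of 0.05. The 5 untreated lines, each transduced line (15 libraries) and the 3 transduced lines together (45 libraries) were fitted separately, and levels are TMM-scaled counts-per-million over 51 libraries. The SE is the log2 fold change divided by the root of its F statistic.

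No 2 libraries of a group agreed within sampling noise (lowest chi-square per degree of freedom 18.3). A spike is a library with at least 10 counts and 5 times both mates. Members, pathway lists and tests were chosen with earlier results of these data known. The text names members and context genes with the smallest adjusted p, the main HIF regulators, and members with a spike. Labels give replicate numbers to every group but no shared culture, and same-numbered libraries did not deviate together. Over 90 same-numbered pairs of 1 line the median correlation of deviations was −0.0008 and 13 exceeded 0.1, so no block entered the tests. Alternatives were other scalings, filters, dispersion, thinning, a replicate block, other sample sets, leaving out each library, and DESeq2 1.42.0. Totals of 1165399 to 7490556 counts limit precision for members of a few CPM. Promoter sequences are RefSeq's, from a GRCh38.p14 table. Members without a matched promoter were SLC2A3, SLC16A1, BNIP3L, NDRG1 and VEGFA. 1 gene of the hypoxia list that the naming rule covers is not reported here by name.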

Additional observations from a re-analysis of the deposited data

Results flagged for a closer look

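Within a line, the OVOL2 effect with M2rtTA was tested against the effect without it, and it differed for 4 members in KP4. The adjusted p was 0.0114 for PGK1, 0.0335 for LDHA, 0.0411 for ENO1 and 0.0451 for LDHB. In PK45H it differed for GAPDH (adjusted p = 0.0482) and PDK1 (0.0474). The mCherry group behind the PDK1 difference holds 1 library 11.9 times its nearest mate. Calls that ended on leaving out some 1 library, with the number of such libraries and the highest adjusted p, were LDHA (10, up to 0.0897 without KP4 mCherry with M2rtTA replicate 1), ENO1 (9, up to 0.109 without KP4 mCherry replicate 3) and LDHB (10, up to 0.117 without KP4 mCherry replicate 3) in KP4, and GAPDH (11, up to 0.104 without PK45H mCherry with M2rtTA replicate 3) and PDK1 (8, up to 0.105 without PK45H OVOL2 replicate 1) in PK45H.

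The OVOL2 effect was also tested for a difference between KP4, PANC1 and PK45H. Without M2rtTA it differed for VEGFA (adjusted p = 0.00364) and EGLN1 (0.0379). With M2rtTA it differed for VEGFA (adjusted p = 8.99e-05), PKM (0.000638), LDHA (0.00106), PGK1 (0.00214), ADM (0.00397), LDHB (0.00425), SLC16A1 (0.0153), SLC2A1 (0.0412) and ENO2 (0.0447). Of these, the calls that ended in the same way were EGLN1 (8, up to 0.135 without PK45H OVOL2 replicate 1) without M2rtTA, and SLC2A1 (15, up to 0.112 without PANC1 OVOL2 with M2rtTA replicate 3), ENO2 (8, up to 0.144 without PANC1 mCherry with M2rtTA replicate 1) and SLC16A1 (2, up to 0.0728 without PK45H OVOL2 with M2rtTA replicate 3) with it. In the order KP4, PANC1, PK45H the PKM changes with M2rtTA were −1.07, −0.97 and 0.06, and for VEGFA the same values were 0.03, −0.14 and 1.48.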

How the results depend on the processing

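Of the members called over the 3 lines, 19 of 21 with M2rtTA and 11 of 15 without were called in the same direction under every alternative. Within lines with M2rtTA 13 of 15 calls held in KP4, 12 of 17 in PANC1 and 5 of 7 in PK45H. Without M2rtTA 7 of 13 held in KP4, 3 of 4 in PANC1 and 0 of 10 in PK45H. Untreated, 8 of 22 held for HPAFII and PATU8988S together. Against the others, HPAFII kept 6 of 15, PATU8988S 8 of 18, KP4 7 of 16, PANC1 7 of 16 and PK45H 4 of 13. The M2rtTA change kept 1 of 4 in KP4 and 0 of 2 in PK45H. The share of all genes called was not taken under the alternatives, so the counts below have no background beside them. Thinned to the smallest total, the called members were 9 for HPAFII and PATU8988S together, 7 for HPAFII, 11 for PATU8988S, 7 for KP4, 7 for PANC1 and 4 for PK45H, each against the other untreated lines. Thinning also turned BNIP3 in PATU8988S to 0.096 (adjusted p = 0.96), and the cause was not tested. For the change of the OVOL2 effect with M2rtTA, KP4 had 1 called member under upper-quartile scaling, no filter, thinning or the compared groups alone, and 2 in 1 fit of 51 libraries. PK45H had 1 under RLE or upper-quartile scaling, robust dispersion, a minimum mean count of 10 or no filter, and 0 on thinning or in the compared groups alone. PANC1 had 4 by DESeq2. PANC1 mCherry against untreated had 0 with no filter, on thinning or in the compared groups alone, and both mCherry groups had 0 in the last of these 2 settings. PK45H had 1 by DESeq2 for mCherry against untreated and 1 for M2rtTA alone. PK45H OVOL2 without M2rtTA had 5 with no filter and 3 on thinning or in the compared groups alone, and 4 members differed between lines without M2rtTA at a minimum mean count of 10.

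The replicate numbers do not pair the libraries, and 15 of 45 libraries correlated best with their own number. With the replicate number as a block, the counts were 2 for the M2rtTA change in KP4, 0 for that in PK45H, 0 for PANC1 mCherry and for both mCherry groups against untreated, and 5 for PK45H OVOL2 without M2rtTA.

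Leaving out each library gave 24 to 29 called members for any difference among the untreated lines, 17 to 23 for HPAFII and PATU8988S together, 11 to 15 for HPAFII, 14 to 18 for PATU8988S, 11 to 18 for KP4, 11 to 16 for PANC1 and 8 to 16 for PK45H. For OVOL2 without M2rtTA the ranges were 8 to 13 in KP4, 3 to 4 in PANC1, 2 to 9 in PK45H and 12 to 16 over the lines. With M2rtTA they were 14 to 16, 13 to 18, 5 to 8 and 20 to 22. The M2rtTA change had 1 to 4 in KP4 and 0 to 1 in PK45H. Differences between lines had 1 to 4 without and 7 to 9 with M2rtTA. PANC1 mCherry and both mCherry groups, PK45H mCherry, PK45H M2rtTA alone and both mCherry groups over the lines each had 0 to 1. The RLE and upper-quartile scalings moved the median of all genes by at most 0.062. DESeq2 was not run for tests among 3 or more lines. Counts of a few per library limit CA9, PFKFB4, ALDOC and CA12.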
